A study of Mus musculus with 8 samples.

Results

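Motor neuron cultures lacking Litchi were compared with control cultures on day 9 of differentiation, the later of the study's 2 sampling days. The comparison rests on 4 of the 8 arrays of the series, 2 from knockout cells and 2 from control cells, chosen by their titles. Both groups came from male mouse embryonic stem cells of an Hb9GFP line, named for a motor neuron promoter that drives green fluorescent protein. Both had received retinoic acid and Sonic hedgehog from day 2, were dissociated from embryoid bodies into single cells on day 5, and were then kept in GDNF until sampling. The groups differed by the Litchi knockout, whose allele and number of clones are not given in the sources used here, and no sorting of cells is named. The labels do not say whether replicates 1 and 2 came from separate cultures, so a p-value here covers only how far these particular arrays spread, possibly for technical reasons. Litchi was found 0 times among the names on the array and in the reference table, so the targeted gene could not be checked in any sample.

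Spinal motor neurons arise from Olig2-positive progenitors of the ventral neural tube that retinoic acid and Sonic hedgehog pattern together. Notch signalling, through its Hes targets, keeps such progenitors undifferentiated and dividing, whereas proneural factors drive them out of the cell cycle. Newborn motor neurons switch on LIM homeodomain factors such as Isl1 and Lhx3, then the genes of acetylcholine transmission, and extend axons filled with neurofilaments and kinesins.

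Levels are given as log2 intensity relative to the 75th percentile of the same array, so 0 is that percentile, and a difference of 1 is a doubling. They are comparable between arrays for a gene but not between genes. Before scaling, the 75th percentile of the day 9 arrays was 1088 intensity units for control replicate 1 and 708 for control replicate 2, against 1429 and 856 for the knockout replicates. The number of arrays limits the precision throughout. Across genes, the 2 control arrays correlated at a Pearson r of 0.9906 and the 2 knockout arrays at 0.9944, with no p since genes are not independent replicates. The control arrays stood further apart than the knockout arrays: 936 genes differed by more than 1 log2 unit between them, against 445 in the knockout pair. They also lay at 13.0 (replicate 1) and 41.1 (replicate 2) on the first principal component of the 8 arrays, which held 44.8% of the variance, with the knockout arrays at 64.8 and 53. All arrays were on 1 slide and in 1 scan, each replicate number filling a row of the slide.

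Knockout cells on day 9 had lower levels of genes that mark maturing neurons (acetylcholine handling, neurofilaments, axonal transport, synaptic vesicles, ion channels) and higher levels of neural progenitor and Notch pathway genes. Of 23813 genes tested with limma, 1543 (6.48%) passed at a Benjamini-Hochberg adjusted p under 0.05, with 452 higher in knockout cells (1.9% of all tested) and 1091 lower (4.58%). At an unadjusted p under 0.05 there were 6296. "Rose" and "fell" are used only for genes that passed, and adjusted p-values come from this fit over all genes. The median difference of all genes was -0.01. Scaling each array to its median moved that median to 0.20 and turned the balance to 1505 higher and 708 lower, so each change is relative to the 75th percentile and the excess of falls depended on the scaling. List medians rose by a like amount, and those given here that lie between -0.2 and 0 (motor neuron factors, Hox, RNA-binding, imprinted genes) turned positive.

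The number of calls depended on single arrays. It was 98 without control replicate 1, 579 without control replicate 2, 271 without knockout replicate 1 and 21 without knockout replicate 2, all of day 9. Of 217 named genes that passed with all arrays, 10 passed in each of those 4 fits and 98 in none. No named gene that passed changed sign in any of them. Median scaling left 8 falls among axonal, 3 among ion channel and 3 among protocadherin genes, and correcting the background with normexp left 6, 2 and 2 of these, 8 among synaptic vesicle, 3 among pluripotency and 8 among placental genes, and 3 and 5 rises among progenitor and Notch genes. For the main gene lists, the number of members that passed without each of these 4 arrays is given in that order.

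The cultures carried motor neuron, neuronal and other markers in both groups. All 8 listed motor neuron markers and all 6 pan-neuronal markers were well above background, and 1 of the former rose and 4 fell. The summed level of the pan-neuronal markers (log2) was 7.41 and 7.10 on control arrays and 6.38 and 6.43 on knockout arrays, without overlap. Motor neuron markers summed to 4.55 and 3.94 in control and to 3.60 and 3.91 in knockout cells, so the replicate 2 arrays were nearly level. Summed progenitor markers overlapped, at 6.09 and 6.23 against 6.15 and 6.4, although 2 of the 5 rose. Bright genes weigh most in such sums. As a mean level over the genes, progenitor markers did not overlap, at 0.58 and 0.66 in control and 1.35 and 1.82 in knockout cells. The mean level of motor neuron markers was 0.89 and 0.02 in control and -0.35 and -0.22 in knockout cells. Markers of fibroblasts and mural cells, all 6 of them above background, summed to 5.74 and 5.91 in control and to 6.61 and 6.42 in knockout cells. Pluripotent cell markers, 4 of 4 above background, summed to 1.76 and 1.41 in control and to 0.03 and 0.23 in knockout cells. Of the trophoblast markers, Cdx2, Elf5 and Tpbpa were not well above background, and of the skeletal muscle markers Myod1 and Myog were not. In such bulk samples, fewer cells of a type and less RNA per cell cannot be told apart, and the part of these markers in the other differences was not tested.

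The transcription factors of motor neurons did not move in 1 direction. Of 20 listed and measured, 2 rose and 2 fell, against 1.9% and 4.58% of all genes, with a median of -0.03. Isl1, the LIM factor that starts motor neuron differentiation, stood at 0.46 and -1.11 on control replicates 1 and 2, and at -1.15 and -0.68 on knockout replicates 1 and 2. The groups overlapped, and the difference of -0.59 ± 0.47 (standard error, SE) had an adjusted p of 0.460. Its partner Lhx3 lay higher on both knockout arrays, at 2.29 and 2.56 against 1.60 and 1.43, and rose by 0.91 ± 0.16 (adjusted p = 0.0283). Ebf2, a helix-loop-helix factor of the medial motor column, stood at -0.71 and -0.10 against -2.77 and -2.08 in control and rose by 2.02 ± 0.29 (0.0196). The cut homeodomain factors Onecut2 and Onecut3, which act with Isl1 in young motor neurons, fell by 1.35 ± 0.16 (0.0152) and 1.09 ± 0.19 (0.0295). Onecut2 was at 4.32 and 3.93 in control and at 2.82 and 2.73 in knockout cells, and for both genes the knockout arrays lay below the control arrays. Without each array in turn, 0, 1, 1 and 0 members of the list rose and 0, 3, 0 and 0 fell.

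Among 23 measured genes of motor columns and pools, 1 rose and 3 fell, and those that fell included factors of cranial visceral and branchial motor neurons. Phox2a, a homeodomain factor of those neurons, stood at 2.17 and 2.13 on the control arrays and at 0.2 and -0.14 on the knockout arrays. It fell by 2.12 ± 0.21 (adjusted p = 0.0107), and the T-box factor Tbx20, at -1.49 and -1.47 against -3.43 and -3.99, by 2.23 ± 0.22 (0.0107). Aldh1a2, the retinoic acid synthesis enzyme of limb-level motor neurons, rose by 1.12 ± 0.15 (0.0169). Fits without each array called 0, 3, 3 and 0 falling members. Hox genes set the position of motor neurons along the body axis. Of 25 measured, 1 rose and 2 fell, against 1.9% and 4.58% of all genes. Hoxb7, on chromosome 11, rose by 0.79 ± 0.17 (0.0467), while Hoxd3 and Hoxa9 fell by 1.06 ± 0.16 (0.0201) and 1.15 ± 0.18 (0.0240). The Hox median was -0.03, and 8 of the 25 lie on chromosome 11, without which it was -0.42.

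Genes of acetylcholine handling were lower, in 4 of 11 measured members with none higher, and with a median of -0.57. Slc5a7, the choline transporter of cholinergic terminals, stood at 0.37 and -0.20 in control cells and at -2.28 and -3.0 in knockout cells. It fell by 2.73 ± 0.40 (adjusted p = 0.0201). Slc18a3, the vesicular acetylcholine transporter, stood at 3.62 and 3.13 against 1.78 and 2.10 and fell by 1.44 ± 0.22 (0.0234). The synthesis enzyme gene Chat, at -0.97 and -1.58 against -2.45 and -2.26, fell by 1.08 ± 0.23 (0.0464), close to the threshold. Ache, whose product breaks acetylcholine down, stood at -1.45 and -1.57 against -3.04 and -2.85 and fell by 1.43 ± 0.14 (0.0112). In each of these genes the arrays of the 2 groups were apart. Without each array in turn, 0, 4, 1 and 0 members fell, and the median ran from -1.10 without control replicate 2 to -0.27 without control replicate 1.

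**Figure D1:**
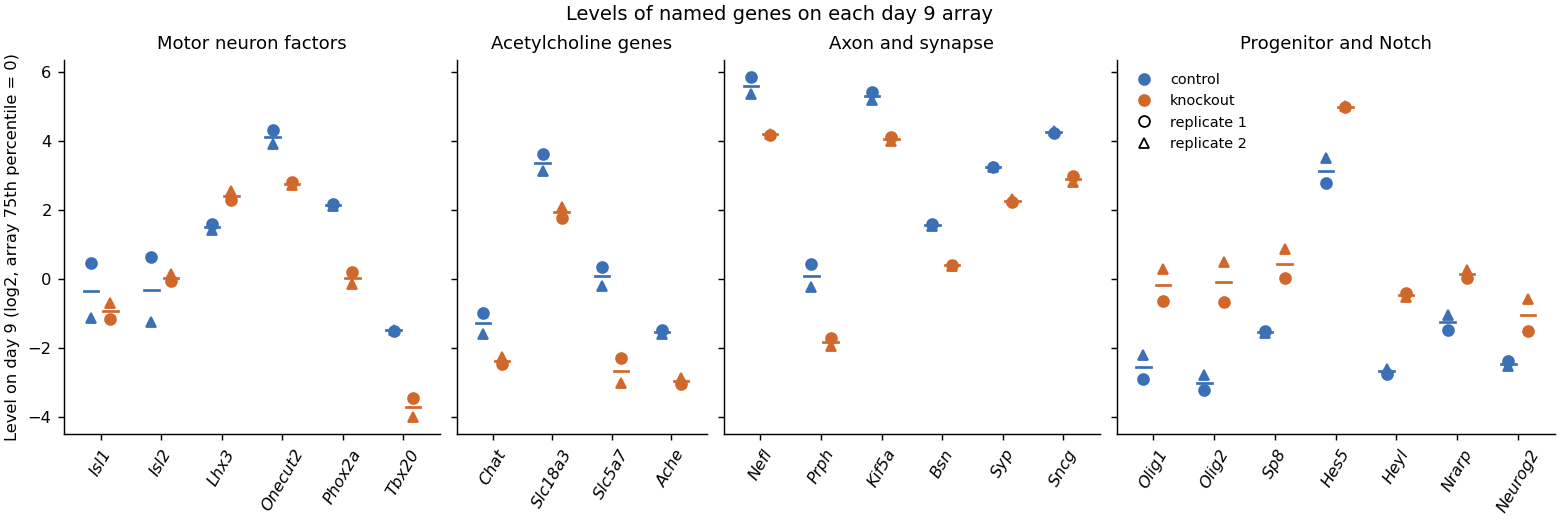
Levels on the 4 day 9 arrays for named genes, in log2 units relative to the array's 75th percentile (0); circles are replicate 1, triangles replicate 2, blue control, orange knockout, and a dash is the mean of 2 arrays. Slc5a7 lies at 0.37 and -0.20 in control and at -2.28 and -3.0 in knockout cells, whereas Olig2 runs the other way, and the arrays of Isl1 and Isl2 overlap.

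Intermediate filament genes, the load-bearing polymers of axons and epithelia, fell in 5 of 11 measured members, with a median of -0.99. Nefl, the light neurofilament subunit, stood at 5.86 and 5.36 in control cells and at 4.2 and 4.21 in knockout cells, a fall of 1.41 ± 0.20 (adjusted p = 0.0200). Prph, the peripherin gene of motor and sensory axons, stood at 0.44 and -0.23 against -1.69 and -1.94 and fell by 1.92 ± 0.25 (0.0169). Ina, a neurofilament partner, fell by 1.23 ± 0.17 (0.0175). The simple epithelial keratin genes Krt8 and Krt18 fell as well, by 1.87 ± 0.18 (0.0107) and 1.54 ± 0.16 (0.0118). Without each array in turn the falls numbered 1, 5, 2 and 0.

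Kinesin, microtubule and growth cone genes fell in 13 of 27 members and rose in none, with a median of -0.65. The axonal motor gene Kif5a stood at 5.43 and 5.20 against 4.12 and 4.01 and fell by 1.25 ± 0.14 (adjusted p = 0.0131). Stmn2, a tubulin-binding regulator of axon growth, stood at 6.07 and 5.87 against 4.79 and 4.75, a fall of 1.20 ± 0.14 (0.0134). The vesicle motor gene Kif1a, the growth cone gene Gap43 and the migration gene Dcx fell by 1.18 ± 0.13, 1.16 ± 0.15 and 1.02 ± 0.12. The other 8 that fell were Kif3c, Kif5c, Kif21b, Map1b, Mapt, Stmn3, Stmn4 and Dpysl3, by sizes from 0.65 for Kif21b to 0.97. In 23 of the 27 both knockout arrays lay below both control arrays, against 32.4% of all genes. Fits without each array called 0, 7, 1 and 0 of them.

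Synaptic vesicle and active zone genes fell in 17 of 34 measured members, against 4.58% of all genes, and none rose. Their median was -0.92. In 30 of the 34 both knockout arrays lay below both control arrays, against 32.4% of all genes. Bsn, the scaffold of the presynaptic active zone, stood at 1.61 and 1.55 in control cells and at 0.41 and 0.39 in knockout cells, a fall of 1.18 ± 0.12 (adjusted p = 0.0118). Syp, the vesicle protein synaptophysin, stood at 3.25 and 3.24 against 2.24 and 2.33 and fell by 0.96 ± 0.15 (0.0224). The arrays within each group lay close together in both genes. The synuclein genes Sncg and Sncb fell by 1.36 ± 0.19 (0.0175) and 1.35 ± 0.27 (0.0399). Rph3a, a Rab3 effector, had the steepest fall of the members that passed, 1.91 ± 0.33 (0.0285). For Sncb and Rph3a 1 of 2 knockout arrays was below background. Without each array in turn, 0, 4, 3 and 0 members fell. On the receiving side of the synapse the list moved less, with 3 of 29 postsynaptic genes lower and a median of -0.37. Begain, a postsynaptic density protein gene, fell by 1.17 ± 0.15 (0.0165), the scaffold gene Shank1 by 1.04 ± 0.21 (0.0419) and the adhesion gene Lrrtm2 by 0.83 ± 0.18 (0.0463), and none of these 3 passed in any of the 4 fits with an array left out.

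Ion channel genes followed the same direction, with 11 of 32 lower, none higher and a median of -0.69. Kcna1, a voltage-gated potassium channel of the axon, stood at -0.25 and -0.17 in control and at -1.98 and -2.01 in knockout cells. It fell by 1.78 ± 0.32 (adjusted p = 0.0313). Kcnma1, the large-conductance calcium-activated channel gene, fell by 1.30 ± 0.20 (0.0229), and Kcnk3, a leak channel gene of motor neurons, by 1.26 ± 0.20 (0.0234). The sodium channel gene Scn2a fell by 1.07 ± 0.22 (0.0409). Fits with an array left out called 0, 1, 0 and 0 of the list. Of 41 neurotransmitter receptor genes, 5 fell and 1 rose, with a median of -0.64. The NMDA receptor core subunit gene Grin1 stood at -1.52 and -1.85 against -3.11 and -3.22 and fell by 1.48 ± 0.16 (0.0123). The GABA-B receptor gene Gabbr1 fell by 1.34 ± 0.14 (0.0124) and the AMPA receptor gene Gria4 by 1.42 ± 0.25 (0.0299). The glycine receptor gene Glra1, on chromosome 11, was the member that rose (2.21 ± 0.40, 0.0314). Grin2c, an NMDA receptor subunit gene of the same chromosome that was not in the list, also rose (2.46 ± 0.19, 0.00546). Without each array, 0, 2, 2 and 0 of the receptor genes fell.

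Other neuronal lists held smaller counts of falls, some of them near the 4.58% of all genes that fell. Clustered protocadherins, which give each neuron a surface identity, fell in 6 of 17 measured members, with a median of -0.90. Pcdha8 stood at 0.34 and 0.14 against -0.95 and -1.07 and fell by 1.25 ± 0.14 (adjusted p = 0.0126), but the alpha genes share their constant exons, so their probes may not separate them, and 0, 1, 1 and 0 members passed without each array. Of 41 ephrin, semaphorin, netrin and Robo guidance genes, 3 fell. They were the semaphorin gene Sema4f (-2.04 ± 0.20, 0.0107), the semaphorin receptor gene Plxna4 (-1.37 ± 0.14, 0.0107) and the netrin receptor gene Unc5c (-1.34 ± 0.18, 0.0169). Neuronal RNA-binding and splicing factor genes fell in 5 of 28 members (Celf4, Celf5, Celf6, Khdrbs2 and Rbfox1), though the list's median was -0.06. Interneuron genes fell in 4 of 23, among them the GABA synthesis gene Gad2 (-1.07 ± 0.17, 0.0237) and the neuropeptide gene Sst (-1.40 ± 0.21, 0.0214). None of the 23 passed in the 4 fits that left out a day 9 array. Of the genes linked to motor neuron disease, Kif5a and Stmn2 fell among 33 measured, with a list median of 0.09.

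Immediate early genes, which activity induces in neurons, had 2 falls and 1 rise among 23. Of all genes 4.58% fell and 1.9% rose, and the list median was -0.22. Nr4a2, an orphan nuclear receptor of this class, stood at 2.14 and 2.84 in control cells and at -0.15 and -1.11 in knockout cells. It fell by 3.12 ± 0.37 (adjusted p = 0.0145), whereas the stress sensor gene Gadd45g, itself a target of proneural factors, rose by 1.29 ± 0.16 (0.0162). The ERK phosphatase gene Dusp6 fell by 1.04 ± 0.19 (0.0329). Of the neurotrophic factor receptors, the BDNF receptor gene Ntrk2 rose by 1.12 ± 0.17 (0.0204). The hepatocyte growth factor receptor gene Met, which supports motor neurons, fell by 0.80 ± 0.14 (0.0294).

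Transcription factors of spinal progenitor domains moved the opposite way. Of 24 listed, 18 were measured, and 7 rose and 1 fell, with a median of 0.63. Olig2, which defines motor neuron progenitors, stood at -3.21 and -2.77 on the control arrays and at -0.65 and 0.52 on the knockout arrays. Both knockout arrays were higher by over 2 log2 units, and the rise was 2.93 ± 0.37 (adjusted p = 0.0162). Olig1, its neighbour and partner on chromosome 16, stood at -2.90 and -2.20 against -0.62 and 0.31 and rose by 2.39 ± 0.36 (0.0224). Sp8, a zinc finger factor of ventral progenitors, was at -1.50 and -1.56 against 0.05 and 0.87 and rose by 1.99 ± 0.31 (0.0230). The paired-box factor Pax6 and the interneuron progenitor factor Dbx2 rose by 1.65 ± 0.32 (0.0371) and 1.32 ± 0.25 (0.0329), each with 1 of 2 control arrays below background. Dbx1, of the same class, was at least 2.52-fold higher (0.0186), with both control arrays below background. Such a bound sets the mean of the bright group against, on each dim array, whichever is larger of the signal measured for the gene and the dimmest signal still well above background. The ventral repressor Nkx6-2 was the member that fell, by 0.78 ± 0.16 (0.0430). Without each array in turn, 1, 3, 4 and 0 members rose, and 4 rose among those above background on all 4 day 9 arrays.

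Notch pathway and proneural genes rose in 8 of 24 measured members, and none fell. Heyl, an effector that Notch switches on, stood at -2.73 and -2.59 in control cells and at -0.38 and -0.51 in knockout cells. It rose by 2.21 ± 0.13 (adjusted p = 0.00420), passed in all 4 fits with a day 9 array left out, and had also passed on day 7 (1.19 ± 0.13, 0.0329). Hes5, the main Notch target of neural progenitors, was at 2.78 and 3.52 against 5.00 and 5.01 and rose by 1.85 ± 0.33 (0.0310). Nrarp, a target that feeds back on the pathway, rose by 1.40 ± 0.24 (0.0276), and Mfng, which adds sugars to the Notch receptor, by 1.57 ± 0.22 (0.0175). The inhibitory ligand gene Dll3 rose by 0.93 ± 0.16 (0.0291). They were joined by proneural factor genes, among them Neurog2 (1.40 ± 0.30, 0.0452) and Neurod1 (2.04 ± 0.28, 0.0173, 1 of 2 control arrays below background). Fits without each array called 1, 5, 2 and 1 of the list.

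The Hes5 promoter is shown because that gene is the best described target of the Notch partner RBPJ among those that rose. The RefSeq window on GRCm38.p6 runs from 250 bases before to 50 after the start, chr4:154960673-154960972 on the plus strand, and holds 2 matches to TTCCCAC or its complement GTGGGAA, in capitals.
Hes5: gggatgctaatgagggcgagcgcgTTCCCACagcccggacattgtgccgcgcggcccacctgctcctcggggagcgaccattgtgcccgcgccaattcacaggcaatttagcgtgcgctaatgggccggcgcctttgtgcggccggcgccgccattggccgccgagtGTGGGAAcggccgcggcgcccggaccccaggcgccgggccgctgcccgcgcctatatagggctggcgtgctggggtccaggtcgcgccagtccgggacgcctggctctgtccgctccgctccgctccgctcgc
The same letters were found on either strand in 6.38% of 32851 promoters of that length. Among members of the Notch and proneural list with a promoter in the table, 2 of 18 held them, Hes5 and Lfng. A match describes letters and not binding.

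Among signals that pattern the neural tube, members of the retinoic acid, hedgehog and floor plate lists rose or did not pass. Of 18 retinoic acid genes, 5 rose and none fell, with a median of 0.38. Stra6, the cell's receptor for vitamin A uptake, stood at 0.18 and -0.11 against 1.62 and 1.79 in knockout cells and rose by 1.67 ± 0.17 (adjusted p = 0.0113). The synthesis enzyme genes Aldh1a3 and Aldh1a1 rose by 1.67 ± 0.28 (0.0273) and 0.96 ± 0.15 (0.0229). With Aldh1a2 these act in the uptake of vitamin A and the synthesis of retinoic acid, and 1, 1, 1 and 0 of the list passed without each array. In the hedgehog list, 0 of 14 passed by limma, although 5 were higher at an unadjusted p under 0.05 and 12 had both knockout arrays above both control arrays, against 27.9% of all genes. Gli1, the read-out gene of the pathway, stood at 1.07 and 0.06 against 1.73 and 2.24 (1.42 ± 0.41, 0.0889), and the receptor gene Ptch1 differed by 0.90 ± 0.25 (0.0857). Floor plate genes likewise gave 0 calls in 15, with 1 higher and 2 lower unadjusted and Shh at -0.36 ± 0.13 (0.148).

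Of 36 Wnt genes, 4 rose: the receptor genes Fzd9 (1.58 ± 0.17, adjusted p = 0.0124) and Fzd2 (0.88 ± 0.15, 0.0295) and the nuclear effector genes Lef1 (1.70 ± 0.30, 0.0305) and Tcf7 (1.00 ± 0.20, 0.0390). Fzd2 and Tcf7 lie on chromosome 11, whose genes were shifted upward, and 2 Wnt genes rose with that chromosome left out. Of 35 BMP and TGF-beta genes, 3 rose, among them the ligand gene Bmp5 (at least 2.71-fold, 0.0151, both control arrays below background), the target Id1 (1.12 ± 0.23, 0.0416) and the receptor gene Bmpr1b (0.73 ± 0.14, 0.0369). In the FGF list 1 of 23 rose, the carrier protein gene Fgfbp3 (0.99), and 4 fell. The secreted factor gene Fgf15 was at least 2.75-fold lower (0.0175, both knockout arrays below background), and Fgf13 and the ERK target genes Etv5 and Dusp6 were the others. Etv5 fell by 1.37 ± 0.31 (0.0497), at the edge of the threshold. None of the Wnt, BMP or TGF-beta rises passed without control replicate 1 or without knockout replicate 2.

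Lists of other cell types held small numbers of calls, to be read beside the 1.9% of all genes that rose and the 4.58% that fell. The share of rises was above that of all genes in the oligodendrocyte, glial, mesenchymal and matrix lists. Some of these rises, of Olig1, Olig2, Hes5 and Id1, are also counted in the progenitor, Notch or BMP lists. Of the cell type markers, 0 of 5 for oligodendrocytes rose, and 0 of 4 measured for astrocytes and radial glia. Summed oligodendrocyte markers were at 2.93 and 2.63 in control and at 2.69 and 2.69 in knockout cells, with overlap. Summed astrocyte and radial glia markers overlapped too, at 7.45 and 7.78 against 7.46 and 7.6. Of 16 oligodendrocyte lineage genes 4 rose, namely Olig1, Olig2, the myelin tight junction gene Cldn11 (1.63 ± 0.21, adjusted p = 0.0165) and the precursor receptor gene Gpr17 (1.58 ± 0.23, 0.0196). Of 24 astrocyte and radial glia genes 3 rose, namely Hes5, Id1 and the gliogenic factor gene Sox9. Sox9, on chromosome 11, stood at -0.14 and 0.68 in control and at 1.79 and 1.80 in knockout cells (1.53 ± 0.31, 0.0416). Fibroblast, mural and mesenchymal genes rose in 2 of 25 and fell in none. Thy1, a surface glycoprotein of both fibroblasts and neurons, stood at -1.35 and -1.53 against 0.99 and 1.28 and rose by 2.57 ± 0.30 (0.0138), and the mural receptor gene Pdgfrb by 1.21 ± 0.19 (0.0229). Among 27 collagen and matrix genes, Col1a1 (on chromosome 11, 1.51 ± 0.30, 0.0366), Postn (1.51 ± 0.30, 0.0384) and Fbln1 (0.70 ± 0.15, 0.0450) rose. Csf1r, the receptor of macrophages, was the 1 gene of 17 endothelial and blood genes that passed (-1.19 ± 0.14, 0.0145), and the leukocyte marker Ptprc was not above background. In the skeletal muscle list Tnnt1 rose by 0.94 ± 0.16 (0.0294) and Acta1 fell by 1.16 ± 0.18 (0.0225). The neural crest and sensory list had 2 rises and 2 falls, among them a rise of the noradrenaline synthesis gene Dbh (1.49 ± 0.24, 0.0252) and the fall of Prph. The cilium list had 1 fall, Dnah1 (-0.80 ± 0.17, 0.0454), in 20, near the share of all genes that fell.

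**Figure D2:**
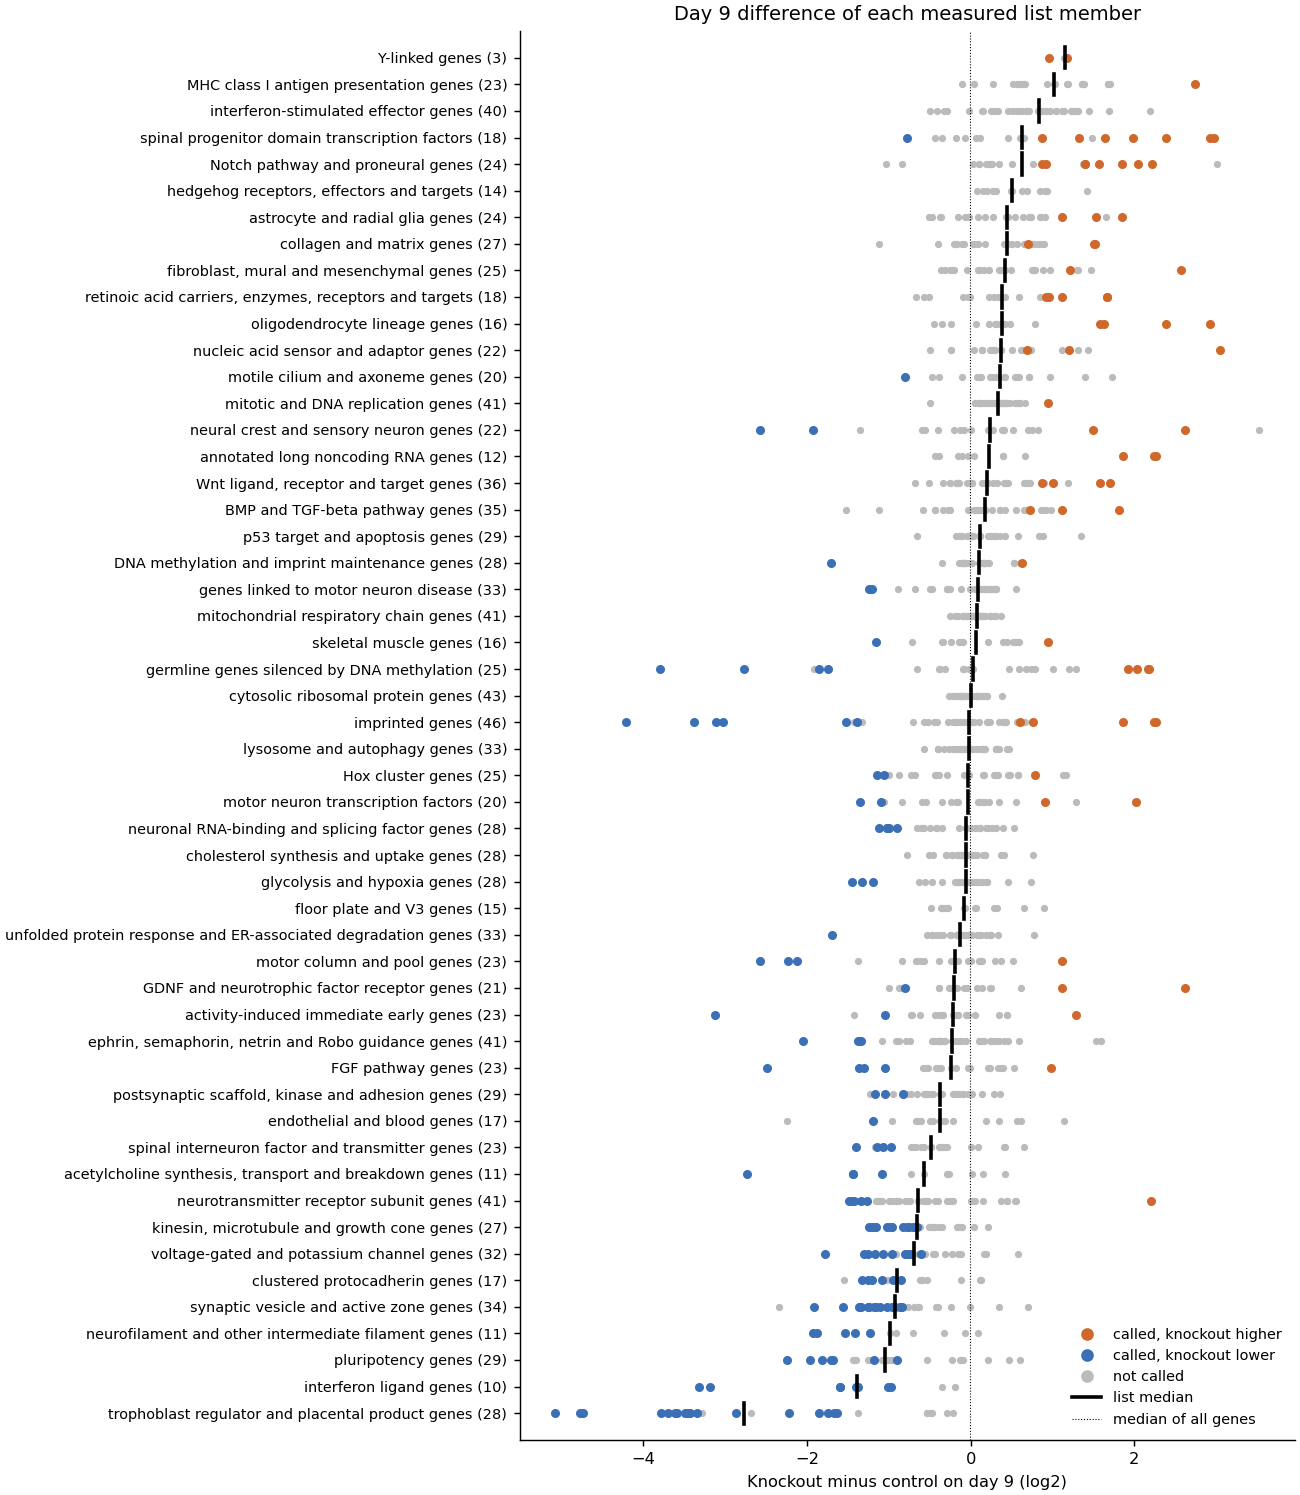
Difference between knockout and control on day 9 (log2, horizontal axis) for each measured member of 52 gene lists, a line for each list with its number of members; orange and blue points passed at an adjusted p under 0.05 over all genes, grey points did not, and the black bar is the list median. Placental genes have the lowest median (-2.77), the synaptic vesicle median is -0.92, and the ribosomal protein median is 0.00.

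Cell division genes were slightly higher as a list, with 1 call. Both knockout arrays lay above both control arrays in 31 of 41 mitotic and replication genes, against 27.9% of all genes, and the median difference was 0.33. Only the replication licensing gene Cdc6, on chromosome 11, rose (0.94 ± 0.16, adjusted p = 0.0295). Mki67, the proliferation marker, stood at 4.60 and 4.74 in control and at 4.89 and 4.94 in knockout cells, a difference of 0.25 ± 0.14 (0.313). Housekeeping lists changed little. By limma, 0 of 43 cytosolic ribosomal protein genes passed (0 at an unadjusted p under 0.05) and 0 of 41 respiratory chain genes (1 unadjusted), with medians of 0.00 and 0.08. Lysosome and autophagy genes (0 of 33, 5 unadjusted), cholesterol genes (0 of 28, 3 unadjusted) and p53 target genes (0 of 29, 3 unadjusted) gave no call either. Glycolysis and hypoxia genes fell in 3 of 28, namely the neuronal glucose transporter gene Slc2a3 (-1.44 ± 0.17, 0.0134), the neuron-specific enolase gene Eno2 (-1.33 ± 0.21, 0.0243) and the phosphofructokinase gene Pfkp (-1.19 ± 0.21, 0.0313). In the unfolded protein response list, 1 of 33 passed, Derl3, a factor that moves misfolded proteins out of the endoplasmic reticulum (-1.70 ± 0.18, 0.0119).

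Interferon ligand genes were lower in knockout cells on day 9. Of 19 listed ligands 10 were measured, and 8 fell, against 4.58% of all genes, with a median of -1.39. Ifna4 stood at -2.76 and -2.89 on the control arrays and at -6.95 and -5.08 on the knockout arrays, of which replicate 1 was below background. It fell by 3.19 ± 0.52 (adjusted p = 0.0258). Ifnb1, the founding ligand of the response, was at -3.18 and -3.32 in control and was not well above background in knockout cells, at least 5.93-fold lower (0.0283). Ifnab, Ifna5, Ifna1 and Ifna2 fell by 1.38 ± 0.16, 1.60 ± 0.20, 1.01 ± 0.14 and 1.40 ± 0.22 (adjusted p from 0.0140 to 0.0238), and Ifna13 and Ifna14 by 1.59 ± 0.25 (1 of 2 knockout arrays below background) and 0.97 ± 0.17. Ifna12 (-0.19) and the type III ligand gene Ifnl3 (-0.35) did not pass. All these levels lay far below the array's 75th percentile, the alpha genes are close copies whose probes may share targets, and 0, 1, 1 and 1 passed without each day 9 array. Some entered only through the control arrays, and among members above background on all 4 day 9 arrays 5 fell, with a median of -1.01. Under normexp background correction 0 passed by limma, with a median of -0.78.

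The direction of the ligand genes had been the other way on day 7, when their median difference was 0.88. Ifna4 then stood at -6.35 and -6.28 in control and at -2.87 and -2.80 in knockout cells, a difference that did not pass (adjusted p = 0.0615) and has no measured size, since neither day 7 control array was above background. Between the days, the ligand median rose by 0.91 in control cells and fell by 1.35 in knockout cells. The test of the difference between days gave -2.23 for Ifnab (adjusted p = 0.23), which was above background on all 8 arrays. It gave an adjusted p of 0.25 for Ifna4 and of 0.42 for Ifnb1, whose signals were below background on some arrays of both days, so none passed over all genes.

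Promoters of Ifna4 and Ifna2 are printed because the ligand genes moved together and because such promoters carry sites of interferon regulatory factors. The windows on GRCm38.p6 from RefSeq are chr4:88841566-88841865 (plus strand) for Ifna4 and chr4:88683730-88684029 (minus strand) for Ifna2, each read along the gene, with matches in capitals to GAAA, any 2 bases and GAAA again, or to the complement with TTTC in both places.
Ifna4: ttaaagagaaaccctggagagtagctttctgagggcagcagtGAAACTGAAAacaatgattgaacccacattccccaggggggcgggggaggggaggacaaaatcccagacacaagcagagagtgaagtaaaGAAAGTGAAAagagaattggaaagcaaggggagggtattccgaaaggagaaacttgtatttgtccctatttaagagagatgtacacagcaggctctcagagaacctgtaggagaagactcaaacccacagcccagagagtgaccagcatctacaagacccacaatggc
Ifna2: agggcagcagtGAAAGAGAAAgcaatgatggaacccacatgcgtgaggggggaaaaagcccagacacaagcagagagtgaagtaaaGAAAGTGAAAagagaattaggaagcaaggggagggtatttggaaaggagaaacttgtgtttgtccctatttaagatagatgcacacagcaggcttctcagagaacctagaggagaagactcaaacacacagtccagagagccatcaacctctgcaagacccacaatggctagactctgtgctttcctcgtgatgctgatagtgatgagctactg
Of the 10 measured ligand genes, 7 held at least 1 match in this window on either strand, against 3.44% of 32851 promoters. The 7 are close copies on chromosome 4, so they do not count as separate hits against that share. The 3 without a match were Ifna13, Ifnb1 and Ifnl3. Ifna13 and Ifnb1 fell while Ifna12, which holds a match, did not pass, and no match says only that these letters are not in the window.

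The genes that interferon induces did not follow the ligands on day 9. Among 40 measured effector genes 0 passed by limma (5 higher and 1 lower unadjusted), with a median of 0.83. On day 7 the effector median had been 2.38, with 0 passing, so both lists then stood higher in knockout cells (ligands 0.88). The median of the day 9 minus day 7 difference was -1.68 for effectors and -2.26 for ligands. The day 9 effector median was 1.78 between the replicate 1 arrays and -0.17 between the replicate 2 arrays. Isg15, a ubiquitin-like effector, stood at 5.87 and 7.42 in control cells and at 7.66 and 7.74 in knockout cells, so control replicate 1 was low and the other 3 arrays close together. Ifit3, an RNA-binding effector, stood at 1.69 and 4.89 in control and at 4.84 and 3.83 in knockout cells, with overlap. Against control replicate 1 alone the list median was 1.55, with 9 members passing in the fit without control replicate 2, and against control replicate 2 alone it was -0.01, with 0 passing. MHC class I presentation genes had the same shape, with medians of 2.14 and 0.16 against the 2 control arrays and 9 and 0 calls. With all arrays only Mr1, which presents vitamin metabolites, rose of 23 (at least 1.81-fold, adjusted p = 0.0120, both control arrays below background).

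Nucleic acid sensors and adaptors rose in 3 of 22 members. The toll-like receptor gene Tlr12 was not well above background in control cells and stood at -3.52 and -3.47 in knockout cells, at least 3.61-fold higher (adjusted p = 0.00441). On day 7 it was above background on 1 of 2 arrays in each group. The adaptor genes Sting1 and Mavs, which relay cytosolic DNA and RNA signals, rose by 1.21 ± 0.22 (0.0322) and 0.69 ± 0.15 (0.0447). Without each day 9 array, 1, 1, 1 and 0 of the 3 passed.

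**Figure D3:**
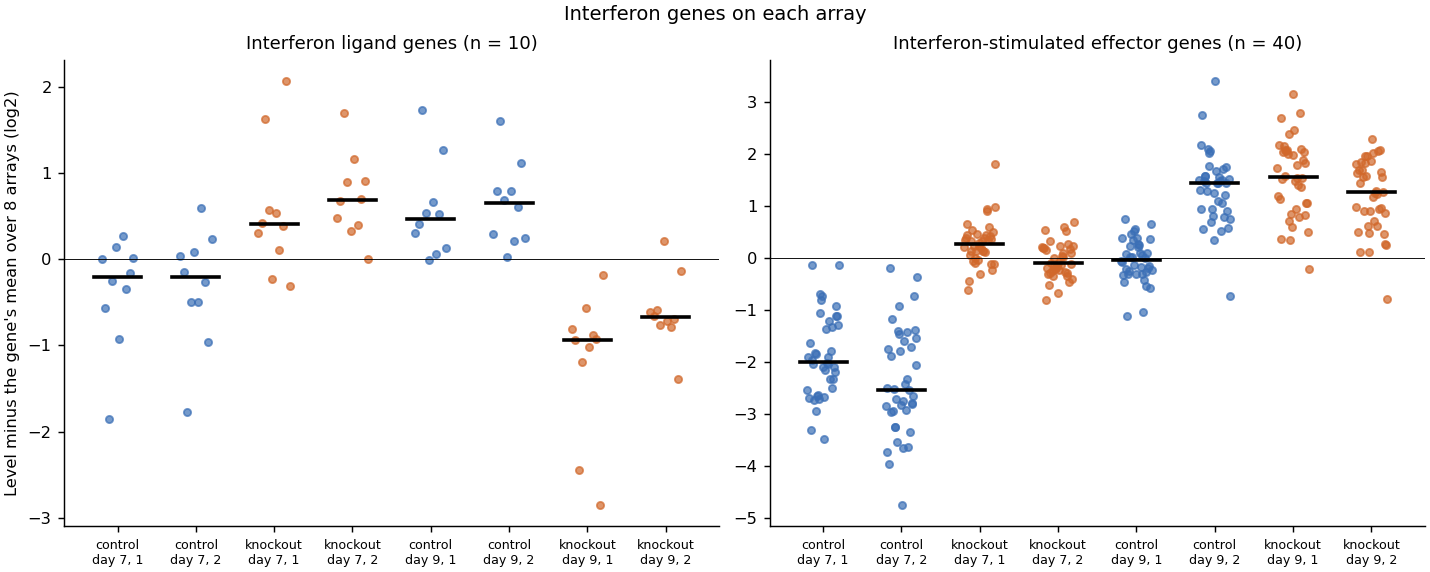
Level of each interferon ligand gene (left, 10 genes) and effector gene (right, 40 genes) on all 8 arrays, minus the gene's mean over the arrays (log2); a point is a gene and the black bar the median of an array, with blue control and orange knockout. On day 9, 9 of the 10 ligand genes lie lower on both knockout arrays than on both control arrays, against 32.4% of all genes. The median difference is -1.39, and some ligand genes entered only through the control arrays. For the effectors, control day 9 replicate 1 lies below the other 3 day 9 arrays.

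Placental genes had the lowest median of the lists, -2.77, with 17 of 28 measured members lower and none higher. Some were measured only because the control arrays were above background: among members above background on all 4 day 9 arrays 10 fell, with a median of -1.75, and under normexp the median was -1.67. They are trophoblast hormones, proteases and protease inhibitors, several in clusters on chromosome 13. Serpinb9g, of a family that blocks granzymes, stood at -0.01 and -0.35 in control cells and at -3.64 and -3.90 in knockout cells, a fall of 3.59 ± 0.23 (adjusted p = 0.00420). Its copies Serpinb9e and Serpinb9f fell by 3.43 ± 0.23 and 3.35 ± 0.21, and Serpinb9d and Serpinb9c by 3.78 ± 0.41 and 2.87 ± 0.36 with 1 of 2 knockout arrays below background. Prl2a1, a prolactin-like hormone gene, stood at -1.50 and -1.04 against -4.92 and -4.61 and fell by 3.5 ± 0.23 (0.00420). Prl2a1, Serpinb9f and Serpinb9g passed in all 4 fits with an array left out. The serpins and prolactins are close copies, so their probes may share targets.

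In other placental genes the control arrays stood far apart. The hormone gene Prl7d1 stood at -1.87 and 0.07 in control and at -4.11 and -5.09 in knockout cells (-3.70 ± 0.79, adjusted p = 0.0452), and the cathepsin gene Ctsq at -4.68 and -1.32 in control. Ctsq was at least 7.04-fold lower (0.0420), its relative Ctsr at least 9.20-fold (0.00747) and the trophoblast gene Tpbpb at least 15.1-fold (0.0162), all with both knockout arrays below background. The summed level of the measured trophoblast markers Prl3d1 and Prl3b1 was -0.96 and 1.69 on the control arrays and -1.96 and -2.68 on the knockout arrays. The trophoblast factor gene Hand1 fell by 2.22 ± 0.27 (0.0149, 1 of 2 knockout arrays below background), and the X-linked homeobox genes Rhox9 and Rhox6 by 1.85 ± 0.24 (0.0165) and 1.74 ± 0.32 (0.0326). Without each day 9 array, 8, 11, 11 and 3 members of the list fell.

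Genes of pluripotent cells fell in 7 of 29 members, with a median of -1.05 and none higher. Pou5f1, the core pluripotency factor gene, stood at -2.72 and -3.77 in control and at -5.60 and -4.82 in knockout cells (-1.96 ± 0.43, adjusted p = 0.0489). Lefty1, an inhibitor of Nodal, fell by 2.25 ± 0.31 (0.0173), Dppa5a, an RNA-binding protein gene of stem cells, by 1.82 ± 0.28 (0.0235), and Lin28a, which blocks let-7 processing, by 1.18 ± 0.17 (0.0204). Fits without each array called 0, 5, 0 and 0. Germline genes that DNA methylation keeps silent went both ways, with 4 rising and 4 falling in 25 and a median of 0.03. Those that rose were the X-linked copies Xlr3a, Xlr3b, Xlr4b and Xlr4a, the last at -1.48 and -1.47 against 0.87 and 0.53 (2.18 ± 0.15, 0.00420). The falls were those of Rhox6, Rhox9, Rhox12 and Pramel16. Rhox12, a reproductive homeobox gene of the X chromosome, fell by 2.77 ± 0.30 (0.0125), and Pramel16 was at least 6.49-fold lower (0.0342, both knockout arrays below background). Of 28 DNA methylation and imprint maintenance genes, 1 rose and 1 fell, near the 6.48% of all genes that passed, with a median of 0.10. Dnmt3l, a cofactor of de novo methylation, fell by 1.71 ± 0.36 (0.0427), and the Polycomb gene Suz12, on chromosome 11, rose by 0.63 ± 0.14 (0.0456).

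Imprinted genes, expressed from the allele of a single parent, included some of the largest changes while their list median stayed at -0.02. Of 46 measured, 5 rose and 6 fell. H19, a maternally expressed noncoding RNA that limits growth, stood at 3.82 and 4.00 in control and at 5.92 and 6.45 in knockout cells and rose by 2.27 ± 0.20 (adjusted p = 0.00959). Igf2, its paternally expressed neighbour, differed by 0.20 with overlapping arrays (0.669). Meg3 and Mirg, noncoding RNAs of the Dlk1-Dio3 cluster, rose by 2.24 ± 0.22 (0.0107) and 1.87 ± 0.20 (0.0126). Grb10, an adaptor that restrains insulin signalling, stood at 0.41 and -0.08 against -2.99 and -2.72 and fell by 3.02 ± 0.28 (0.0107), the opposite of most of its chromosome 11. Rasgrf1, a Ras exchange factor, stood at -2.39 and -2.05 in control, was below background in knockout cells, at least 12.1-fold lower (0.00420), and passed in all 4 fits with an array left out. The zinc finger gene Zim1 and the cell cycle inhibitor gene Cdkn1c fell by 3.11 ± 0.38 (0.0149) and 1.39 ± 0.24 (0.0283). Of the 3 listed Y-linked genes that were measured, Ddx3y, an RNA helicase gene, and Eif2s3y, a translation factor gene, rose by 1.18 ± 0.14 (0.0145) and 0.96 ± 0.13 (0.0169), while Uty, with 1 control array below background, stood at 1.15 ± 0.33 (0.0898). A further measured Y-linked gene outside the list, Gm20877, went the other way (-2.13 ± 0.33, 0.0235), and only 1 knockout array measured it above background.

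Genes of chromosome 11 were shifted upward as a body. Of 1230 tested genes with a symbol there, 132 rose (10.73%) and 14 fell, whereas 2.54% of all genes with a symbol rose. The median difference was 0.384, against medians from -0.005 to 0.091 on each other chromosome except Y and 0.066 over all genes with a symbol. It was 0.372 between the replicate 1 arrays and 0.370 between the replicate 2 arrays. On day 7 it had been 0.285. Above 0 lay 77.0% of chromosome 11 genes, against 56.9% of all with a symbol. Among the largest rises there, Grin2c, an NMDA receptor subunit gene, stood at -4.62 and -4.43 in control and at -2.29 and -1.83 in knockout cells (2.46 ± 0.19, adjusted p = 0.00546) and passed in all 4 fits with an array left out. Arl4d, a small GTPase gene, rose by 1.96 ± 0.27 (0.0173), and Ccdc69 was at least 1.53-fold higher (0.00546, both control arrays below background). Probes of chromosome 11 named only by genome position had a median of -0.154 over 130, below 0 but above the -0.27 over all 2860 such probes, and 43.1% of them lay above 0. With the chromosome left out, 1186 calls were made, 301 higher and 885 lower. The number of copies of the chromosome was not measured.

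**Figure D4:**
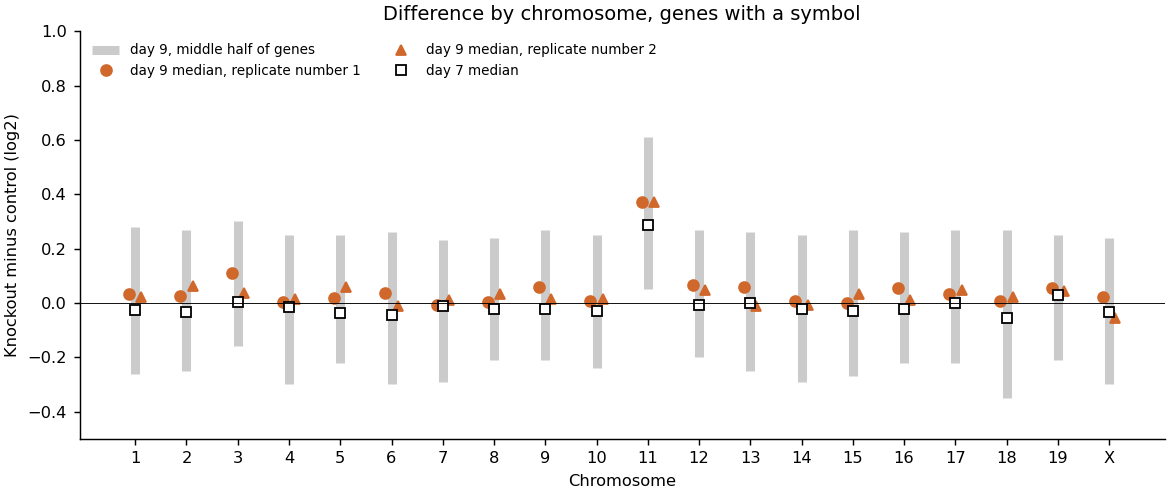
Median difference between knockout and control of genes with a symbol on each chromosome (log2); circles and triangles are the day 9 medians of replicate numbers 1 and 2, open squares the day 7 medians, and grey bars span the lower to the upper quartile of the genes on day 9. Chromosome 11 stands at 0.372 and 0.370 on day 9 and 0.285 on day 7, above the other chromosomes drawn.

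Among all named genes well above background on every day 9 array, the largest rises were those of Olig2, Thy1, Grin2c, Olig1, H19, Meg3, Fam162b, Heyl, Glra1 and Xlr4a, and the largest falls those of Prl7d1, Ctsj, Serpinb9g, Prl2a1, Serpinb9e, Serpinb9f, Prl2c5, Pramel39, Zscan4f and Nr4a2. Fam162b, a mitochondrial protein gene, stood at -2.13 and -1.47 in control and at 0.51 and 0.33 in knockout cells (2.22 ± 0.25, adjusted p = 0.0134). Zscan4f, a marker of early embryo-like stem cells, stood at 0.30 and -1.12 against -3.66 and -3.48 (-3.16 ± 0.52, 0.0259). With both control arrays below background, the largest bounds after Tlr12 were those of the aldehyde oxidase gene Aox1 (at least 3.17-fold higher, 0.0456) and the fatty acid carrier gene Fabp4 (3.07-fold, 0.0223), ahead of Bmp5 and the chemokine gene Cxcl15 (2.67-fold, 0.0107). On the falling side, Ctla2b, a cysteine protease inhibitor gene, was at least 11-fold lower (0.0490) and Pramel31 at least 7.20-fold (0.0204). Ctla2b stood at -0.89 and -3.58 on the control arrays, which were thus far apart.

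The day 9 difference was set beside that of day 7, with which it shares no array. Both come from the same fit with 1 spread estimate per gene, so the calls of the 2 days are not independent. Only genes kept by the day 9 filter were tested on day 7. On day 7, 71 genes (0.298%) passed, and 62 of them passed on day 9 too. Of the 1543 calls of day 9, 95.2% had the same sign on day 7, against 73.9% of all genes. The calls were larger on day 9 in 1429 of 1543, against 13867 of all 23813 genes. Genes called higher had a median of 0.91 on day 9 and 0.53 on day 7, and genes called lower -1.09 and -0.54. The choice of these genes on day 9 partly sets the count and the medians. The test of the difference between days gave 0 calls by limma, with 1457 at an unadjusted p under 0.05. Hes5 differed by 1.85 on day 9 and by 0.20 on day 7, Nrarp by 1.40 and 0.04, Olig2 by 2.93 and 0.94, and Slc5a7 by -2.73 and -0.98. Grb10 (-3.02 and -3.88) and Meg3 (2.24 and 2.27) had differed at least as much on day 7.

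**Figure D5:**
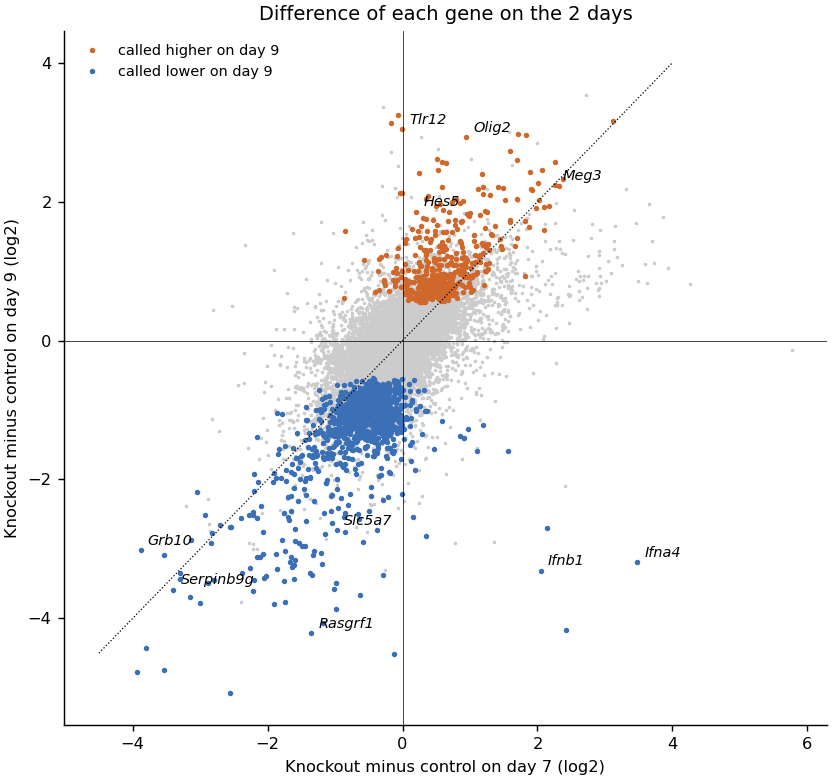
Difference between knockout and control of each gene on day 7 (horizontal) and day 9 (vertical), both in log2 units; orange and blue points passed on day 9, grey points did not, and the dotted line marks equal values. Most called genes lie further from 0 on day 9 than on day 7 (1429 of 1543, against 13867 of all 23813 genes). Their choice on day 9 partly sets this. Ifna4 and Ifnb1 are among those with opposite signs.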

How the data were processed

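The submitters' processing notes name Feature Extraction 10.5.1. Its deposited intensity for each spot had background and spatial trend removed, per the file headers, with no scaling across arrays. A log2 table from the authors covers these arrays too, with equal medians (5.81), r of at least 0.9979 with the scanner values and an unstated baseline, used only as an alternative. Of 62976 spots per array, 3671 control spots and 104 to 166 outlier spots were left out, and 0 spots were saturated. The log2 signal minus the array's 75th percentile was averaged over spots of a probe, giving 55681 probes. Of these, 26307 (47.2%) had a symbol, through RefSeq accessions and a GRCm38.p6 gene table used for names and chromosomes only, and 16194 were named by position. A probe was kept if well above background on both arrays of either day 9 group, and the brightest kept probe stood for a gene. All 8 arrays entered 1 limma 3.58.1 fit in R 4.3.3 (4 group means, 4 residual and 2.72 prior degrees of freedom, two-sided), with Benjamini-Hochberg adjustment over all genes and calls at 0.05. Errors are SE, n = 2 arrays per group. The fit was tested on simulated data.

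Named genes were Isl1, Lhx3, Chat, Olig2 and Mki67, the 10 largest rises and falls above background on all 4 day 9 arrays, the 5 largest bounds each way, up to 4 members of each list with the smallest adjusted p and any called member, the 5 largest rises on chromosome 11, and the 3 largest rises and falls without a symbol. Igf2, Ifit3, Isg15, Ifna12, Ifnl3, Isl2, Lfng, Prl3b1 and Gm20877 were added after their values were seen. Lists, members and rules were chosen with earlier results of these data known. The files lack a mean signal, so the normexp alternative used the median signal. Other alternatives changed the scaling, filter, choice of probe, fit and arrays. Some genes are not reported here.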

Additional observations from a re-analysis of the deposited data

How the results depend on the processing

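Every named gene that passed kept its sign under each alternative that measured it. The 1543 calls became 444 with normexp on the median signal, 339 with only the day 9 arrays in the fit, and 1 (5570 at an unadjusted p under 0.05) with no filter on dim probes, where 37277 genes were tested. They became 1313 after quantile normalization (518 higher, 795 lower), 1306 in the authors' table (515 and 791), 2213 after median scaling (1505 and 708) and 1950 with a variance trend (746 and 1204). The other filters, probe rules and scalings, and leaving out chromosome 11, gave 1186 to 1708. Leaving out an array gave 21 to 1049, the lowest being 21 without knockout day 9 replicate 2 and 98 without control day 9 replicate 1. Without either replicate of knockout day 7, which enters only through the pooled spread, 992 passed.

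Whether replicate numbers pair the samples was unsettled, and the reported fit has no block: deviations of same-numbered arrays from their group means correlated at -0.284 for control and knockout on day 9 but at 0.53 on day 7, and at -0.02 to 0.359 for pairs across days. With the replicate block, 2322 passed, and with the day 9 knockout numbers crossed, an alternative chosen after seeing the data, 2931. A percentile over averaged probes, likewise added, gave 1444. The difference between days gave 0 calls, or 1 with the filter over all 4 groups and 0 to 1 with an array left out. The causes were not tested. Signals near background, such as those of the interferon ligand and placental genes, have the least precision.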

Other observations

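Gene families with shared names, picked after their values were seen, held several changed members each. All 3 measured Zscan4 genes, which mark a rare early embryo-like state of stem cells, fell, with a median of -3.08 on day 9 and -1.59 on day 7. Of 9 measured Pramel genes, a germ cell family, 5 fell and none rose, with a median of -1.92. Of 6 measured Xlr genes, 4 rose and none fell, with a median of 1.98 on day 9 and 1.80 on day 7. Members of each family are near copies, so their probes may share targets.

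Several of the largest differences belong to probes without a symbol. AK049621 stood at 1.84 and 1.60 in control cells and at -2.90 and -2.51 in knockout cells (-4.43 ± 0.19, adjusted p = 0.00238). It passed in every alternative run for it, with a largest adjusted p of 0.0489. NM_133194 fell by 3.35 ± 0.27 (0.00636). Among rises without a symbol, A_55_P2336173 stood at -1.69 and -1.84 against 0.78 and 0.61 (2.45 ± 0.17, 0.00420), and A_55_P2419299 rose by 2.33 ± 0.15 (0.00420). Of 2860 tested probes named only by genome position, 23 rose and 162 fell (6.47%), with a median of -0.27.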
